A study of Mus musculus with 2 samples.

Results

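The kappa light chain variable genes (Igkv) of the mouse were followed in 2 single-cell RNA-seq libraries of 1 spleen cell suspension. Members were all genes of either deposited table whose symbol starts with Igkv. This gave 108 genes of the 30457 genes listed in either table, with 106 listed in the TAS-Seq table, 86 in the BD WTA table and 84 in both. Female C57BL/6J mice, 10 weeks old, served as donors and carried a subcutaneous Lewis lung carcinoma and received 200 μg of anti-CD4 antibody on day 5 and again on day 9 after tumour injection. On day 12, 3 spleens were pooled, frozen and later thawed, and 2000 cells were loaded on a BD Rhapsody cartridge, a nanowell device in which each barcoded bead captures the mRNA of a cell. The beads were then divided between TAS-Seq, in which a terminal transferase adds a C tail to the cDNA and a chain terminator limits the tail, and BD WTA, the manufacturer's random-priming kit. Genotype, tumour, antibody, pool and cartridge were therefore shared by both libraries, with no untreated spleen beside them. Each method had 1 library and the 3 animals could not be separated, so no test between methods was possible. All intervals given are exact 95% intervals that cover counting error only, and reads counted without molecular identifiers are not independent molecules.

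A B cell builds its kappa light chain by joining a V gene (Igkv) to a J segment (Igkj), and the joined exon is spliced to the constant gene Igkc. Most B cells carry a functional light chain from a single rearranged allele, so a B cell is usually expected to transcribe a single rearranged Igkv gene, whereas the germline holds many. Antibody-secreting cells raise immunoglobulin transcripts strongly together with Jchain, which encodes the chain that joins IgM or IgA units.

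All 108 members matched the GENCODE annotation of build GRCm38 on chromosome 6, where it holds 160 Igkv genes. Of the members, 95 were annotated as V genes and 13 as pseudogenes, and 5 annotated V genes (Igkv1-35, Igkv18-36, Igkv20-101-2, Igkv5-37 and Igkv7-33) were listed in neither table. Many members are near copies of each other, which bears on how reads are divided among them. The sequences below show this for the leading and the second Igkv gene of the 5 cells with the most Igkv reads. Each is the last 120 bases of the annotated transcript, 5′ to 3′, inside the last exon of the gene, and capitals mark bases that differ from, or have no aligned partner in, the other gene of the pair.

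The pair of the highest TAS-Seq cell was Igkv1-117, shown at chr6:68121708-68121827 on the plus strand, and Igkv8-16, at chr6:70386672-70386791 on the minus strand. Over their whole transcripts they were 62.9% identical and shared no run of 31 bases.
Igkv1-117: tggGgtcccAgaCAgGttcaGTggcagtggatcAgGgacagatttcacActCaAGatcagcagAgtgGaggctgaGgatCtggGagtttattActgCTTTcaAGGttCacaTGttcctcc
Igkv8-16: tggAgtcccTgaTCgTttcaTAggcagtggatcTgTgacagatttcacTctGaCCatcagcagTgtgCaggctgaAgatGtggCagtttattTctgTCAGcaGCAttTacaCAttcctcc

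In the highest BD WTA cell the pair was Igkv1-122, at chr6:68017369-68017488 on the plus strand, and Igkv1-110, at chr6:68271148-68271267 on the plus strand, which were 93.5% identical.
Igkv1-122: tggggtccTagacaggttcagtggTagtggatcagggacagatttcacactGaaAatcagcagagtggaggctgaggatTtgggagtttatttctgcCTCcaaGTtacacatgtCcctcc
Igkv1-110: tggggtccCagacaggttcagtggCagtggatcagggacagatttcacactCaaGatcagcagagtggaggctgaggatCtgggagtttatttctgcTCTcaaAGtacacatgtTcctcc

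Another 2 BD WTA cells shared a pair, Igkv14-126 at chr6:67896523-67896642 on the plus strand and Igkv14-111 at chr6:68256750-68256869 on the plus strand, with 91.6% identity.
Igkv14-126: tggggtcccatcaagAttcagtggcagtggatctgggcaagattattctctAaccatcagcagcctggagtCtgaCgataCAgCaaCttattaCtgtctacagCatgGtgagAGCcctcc
Igkv14-111: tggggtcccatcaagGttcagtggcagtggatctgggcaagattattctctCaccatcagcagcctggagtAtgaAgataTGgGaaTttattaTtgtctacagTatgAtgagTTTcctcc

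The remaining BD WTA cell had Igkv1-135, at chr6:67610389-67610508 on the plus strand, and Igkv1-133, at chr6:67725542-67725661 on the plus strand, which were 96.5% identical and differed at only 5 of the bases shown.
Igkv1-135: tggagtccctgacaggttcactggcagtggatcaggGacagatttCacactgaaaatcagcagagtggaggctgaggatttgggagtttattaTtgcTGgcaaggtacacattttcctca
Igkv1-133: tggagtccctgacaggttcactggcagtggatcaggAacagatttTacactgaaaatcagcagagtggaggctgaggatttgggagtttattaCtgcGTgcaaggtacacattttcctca

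The tables held 736 TAS-Seq and 716 BD WTA barcodes, with 38656790 and 31608259 reads in all, and no barcode occurred in both. After filtering, 732 and 708 cells remained, with a median of 46557 and 38426 reads. Clusters made without immunoglobulin genes gave 363 B-like cells in TAS-Seq and 332 in BD WTA, and all 8 B cell markers were detected in at least 50% of them in both libraries. T-like cells numbered 251 and 289 and NK-like cells 48 and 26. The NK-like clusters were not alike, with 3 NK and 6 T cell markers raised in TAS-Seq, and 5 and 1 in BD WTA. A further cluster of 70 and 61 cells had raised B cell markers but also carried the myeloid markers at a summed 8903 and 6433 CPM (reads of the genes scaled to a library total of 1e+06), against 55.6 and 198.9 CPM in the B-like cells. Of the 6 myeloid genes, 2 in TAS-Seq and 0 in BD WTA were seen in at least 50% of its cells. Its marginal zone B cell markers summed to 2328 and 2499 CPM, against 808 and 831 CPM in the B-like cells. In each library 5 B cell markers were raised in the cluster, but 0 were among its 10 most raised genes, so it stayed unnamed. It was kept apart. Scrublet marked 1 TAS-Seq and 3 BD WTA cells as doublets, and they were left in.

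Igkv transcripts took a small share of the reads. Members had 4433 reads in the TAS-Seq table, 0.0115% of its reads, and 7604 reads in the BD WTA table, 0.0241%. A read was seen for 104 members in TAS-Seq and for 82 in BD WTA, and 75 and 52 members had at least 10 reads. Beside them, 2 members were listed at 0 in TAS-Seq and 4 in BD WTA. A member with any read had a median of 22 reads over 7 cells in TAS-Seq and of 16.5 reads over 3 cells in BD WTA. TAS-Seq thus held more members, each seen in more cells at the median. Its table was also the longer over genes of all kinds, with 29292 of the 30457 genes listed, against 25459 in BD WTA. Among members with at least 10 reads, 24 of 75 in TAS-Seq and 34 of 52 in BD WTA had at least 50% of their reads in a single cell, so pooled levels often described 1 cell. Pseudogenes had 79 reads in TAS-Seq (1.78%) and 46 in BD WTA (0.605%).

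The 22 members listed in TAS-Seq alone, whose table also listed more genes of all kinds, mostly had few reads. Igkv8-16 was the exception with 217 reads, 161 of them in 1 cell, and the next was Igkv6-14 with 31 reads. Listed in BD WTA alone were Igkv1-132 and Igkv8-34, with 1 read each. Absence from a table says here that no read was counted at this depth, not that the gene was silent.

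Igkv reads were concentrated in the B-like cells and in the unnamed cluster with raised B cell markers in both libraries. At least 1 Igkv read was seen in 311 of 363 TAS-Seq B-like cells (85.7%, interval 81.6 to 89.1%) and in 178 of 332 BD WTA B-like cells (53.6%, 48.1 to 59.1%). With each cell thinned to 20000 reads, these shares were 75.2% of 351 and 51.0% of 300 cells, and the intervals of the libraries stayed apart. T-like cells, which should lack Igkv transcripts, had a read in 103 of 251 TAS-Seq cells (41.0%, 34.9 to 47.4%) and in 2 of 289 BD WTA cells (0.692%, 0.0839 to 2.48%). Median depths were 40812 and 52594 reads for TAS-Seq B-like and T-like cells and 34251 and 42003 reads for those of BD WTA. A single Igkv read therefore separated B-like from T-like cells less cleanly in TAS-Seq. Thinning to 20000 reads brought the T-like shares to 17.8% and 0.377%. No T-like cell of either library reached 5 Igkv reads, for which the exact interval reaches 1.46% in TAS-Seq and 1.27% in BD WTA, whereas 44.6% and 30.4% of the B-like cells did. The highest T-like cell had 4 reads in TAS-Seq and 1 read in BD WTA. Of the NK-like cells, 21 of 48 in TAS-Seq (43.8%, 29.5 to 58.8%) and 1 of 26 in BD WTA (3.85%, 0.0973 to 19.6%) had an Igkv read. The highest NK-like cell had 4 and 5 reads, so in BD WTA 1 cell outside the B cell classes did reach 5. A minimum of 10 reads was used to give a cell a leading gene.

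**Figure D1:**
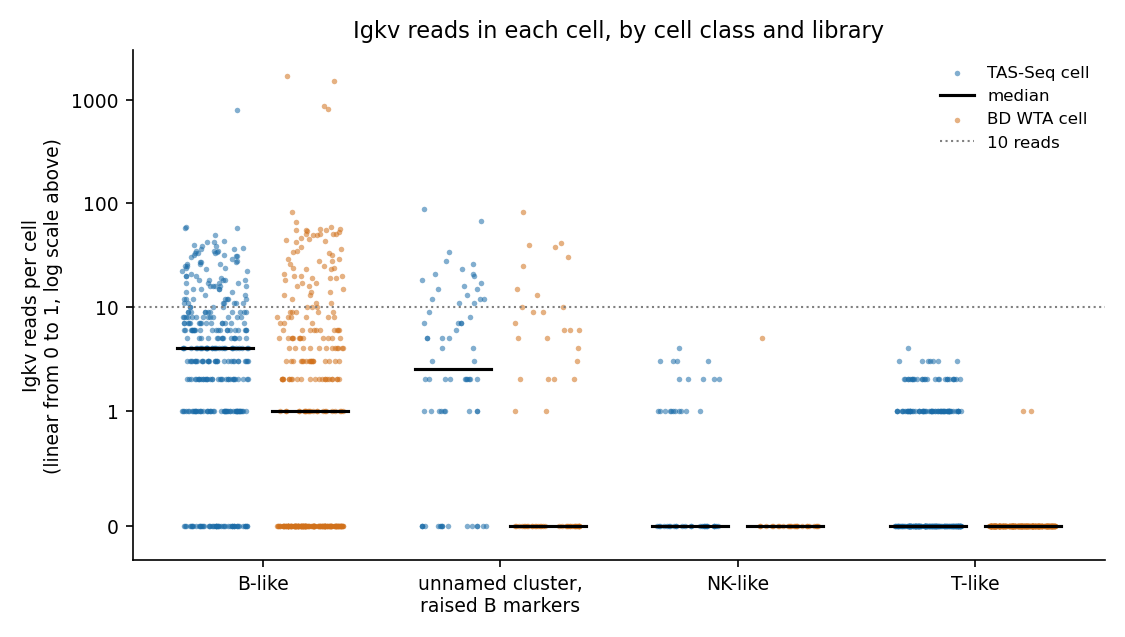
Igkv reads per cell (vertical axis, linear from 0 to 1 and log above) for B-like cells, the unnamed cluster with raised B cell markers, NK-like cells and T-like cells, with a point for each cell and a black line at the median. The B-like medians lie at 4 reads in TAS-Seq and 1 read in BD WTA, 5 B-like cells stand above 500 reads, and no T-like cell reaches 5.

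The T-like reads of TAS-Seq were not spread evenly over the members. Of 147 Igkv reads over 52 members, Igkv1-117 had 25 (17.0%), Igkv8-16 had 15 (10.2%) and Igkv1-110 had 11 (7.48%). These were the 3 genes with the most reads in the highest TAS-Seq cell, described below. Of them, Igkv1-117 and Igkv1-110 were also common in the 362 B-like cells besides that one, where they ranked 4 and 2 by reads. They were seen in 13.8% and 9.39% of those cells, against 8.76% and 3.98% of the T-like cells. Igkv8-16 was seen in 15 of the 251 T-like cells (5.98%, 3.38 to 9.67%), with 1 read in each, and in 13 of the other 362 B-like cells (3.59%, 1.93 to 6.06%), where the intervals overlapped. BD WTA T-like cells held 1 read of Igkv1-117 and 1 of Igkv14-126. The ratio of Igkv to Igkc reads also differed between classes. TAS-Seq T-like cells had 147 Igkv reads for 1390 Igkc reads (10.6%), against 1.69% in the B-like cells, and BD WTA T-like cells had 2 for 506 (0.395%), against 1.44%. The source of these reads was not tested.

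A leading Igkv gene could be given to about 1 in 5 B-like cells. It was found in 86 of 363 TAS-Seq cells (23.7%, 19.4 to 28.4%) and in 64 of 332 BD WTA cells (19.3%, 15.2 to 23.9%), so the libraries did not differ beyond counting error. The gap depended on the minimum, and the order turned at the higher ones. A minimum of 5 reads was met by 44.6% in TAS-Seq and 30.4% in BD WTA, one of 20 reads by 12.4% and 13.6%, and one of 50 reads by 1.10% and 5.42%. More TAS-Seq cells had some Igkv reads, and more BD WTA cells had many. Cells with a leading gene had a median of 521.5 Igkc reads in TAS-Seq and 542 in BD WTA, against 315 and 379.5 in the remaining B-like cells. They were also deeper, with medians of 47694.5 and 36913.5 reads against 39700 and 34066.5, and the part of depth in being given a leading gene was not tested.

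The leading gene held most of a cell's Igkv reads, and more so in BD WTA. Its median share was 73.6% (70.4 to 80%) over the 86 cells of TAS-Seq and 95.3% (79.2 to 100%) over the 64 of BD WTA, with intervals that just overlapped. Only 1 Igkv gene was seen in 8 TAS-Seq cells (9.30%, 4.10 to 17.5%) and in 30 BD WTA cells (46.9%, 34.3 to 59.8%), and the number of Igkv genes per such cell had a median of 3 and 2. A gene with at least 90% of the reads, here called dominant, was found in 25 TAS-Seq cells (29.1%, 19.8 to 39.9%) and in 37 BD WTA cells (57.8%, 44.8 to 70.1%). At a share of at least 50% the libraries were alike in value, with 88.4% and 90.6% of cells. The lowest leading share was 27.3% in TAS-Seq and 33.3% in BD WTA. After thinning to 20000 reads, a dominant gene was held by 13 of 42 cells in TAS-Seq (31%) and 21 of 42 in BD WTA, and the intervals then overlapped.

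**Figure D2:**
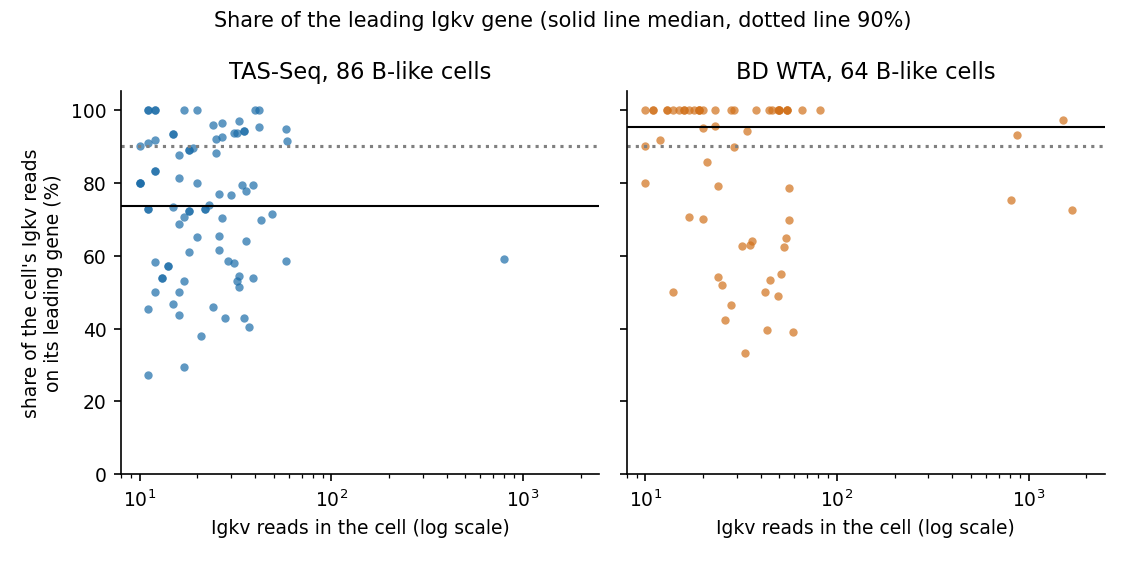
Share of a cell's Igkv reads on its leading gene (vertical axis, %) against the Igkv reads of the cell (log axis) for B-like cells with at least 10 Igkv reads, TAS-Seq on the left and BD WTA on the right. The solid line is the median, 73.6% and 95.3%, the dotted line is 90%, and 30 BD WTA cells lie at 100% against 8 TAS-Seq cells.

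Reads beside the leading gene fell both on near copies of it and on unlike members. Genes at least 90% identical to the leading gene held 397 of 839 such reads in TAS-Seq (47.3%) and 856 of 1137 in BD WTA (75.3%), although they made up only 4.15% and 3.68% of the pairs of a cell's leading gene with another member. Genes under 70% identity held 45.6% and 16% of these reads and made up 82.5% and 83.7% of the pairs. Without the 5 cells of at least 1000 Jchain reads described further on, the genes at least 90% identical held 260 of 514 such reads in TAS-Seq (50.6%) and 171 of 370 in BD WTA (46.2%), and the genes under 70% held 38.3% and 31.1%. The higher BD WTA share thus rested on its 4 high cells. A second gene with at least 3 reads was present in 46 TAS-Seq and 27 BD WTA cells. It belonged to the same family as the leading gene in 28 (60.9%, 45.4 to 74.9%) and 16 cells (59.3%, 38.8 to 77.6%). Summing the reads of genes at least 90% identical to the leading gene raised the cells with a dominant gene to 49 of 86 (57.0%) and 47 of 64 (73.4%), and the intervals of the libraries overlapped. The median leading share was then 93.6% (88.9 to 96.3%) in TAS-Seq and 100% (100 to 100%) in BD WTA, with intervals that lay apart.

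A second gene of unlike sequence with a large share was also seen. Where the second gene had at least 3 reads and 20% of the Igkv reads, 12 of 25 cells in TAS-Seq and 4 of 19 in BD WTA had a second gene under 70% identical to the first. Among them was a TAS-Seq cell with 34 reads of Igkv4-53 and 13 of Igkv1-110, which were 62.6% identical, with all 25 of its Igkj reads on Igkj1. A BD WTA cell with 59 Igkv reads had 23 of Igkv9-120 and 17 of Igkv17-127, at 55.2% identity. It also had 15 reads of Igkv17-121, a near copy of Igkv17-127 at 97.5% identity. These near copies together had more reads than Igkv9-120, so its leading gene depended on how reads of near copies were counted. The source of the second gene's reads was not tested.

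Usage was spread over many members, with no gene in more than a few cells. In TAS-Seq 44 members led at least 1 B-like cell and in BD WTA 35 did, 18 and 20 of them in 1 cell each. Common to the libraries were 19 leading genes, 43.2% of those of TAS-Seq and 54.3% of those of BD WTA. Together 60 members led in a cell of either library and 48 of the 108 led in none. The most cells led by a single member were 5 in TAS-Seq and 6 in BD WTA. For none of the 108 members did the usage intervals of the libraries lie apart (0 of 108), and at 86 and 64 cells only wide gaps could have been resolved. Across the 108 members, the number of cells led had a Spearman correlation of 0.28 between libraries, the number of B-like cells with a read 0.57 and the reads in B-like cells 0.49, given as a description over genes that are not independent and share 1 cell pool.

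The 10 members leading most cells led 29 of 86 cells in TAS-Seq (33.7%, 23.9 to 44.7%) and 32 of 64 in BD WTA (interval 37.2 to 62.8%). Igkv19-93, an opposite-strand gene at chr6:68736297-68736780, led 4 TAS-Seq cells (4.65%, 1.28 to 11.5%) and 6 BD WTA cells (9.38%, 3.52 to 19.3%). Igkv10-96, at chr6:68631963-68632442, led 5 (5.81%) and 3 (4.69%). Igkv1-135 and Igkv17-121 each led 4 TAS-Seq and 3 BD WTA cells. These 4 members were thus at like counts in both libraries. Igkv6-15 led 3 and 3 cells, Igkv1-110 led 2 and 3, and Igkv14-111 led 2 and 2. Igkv5-39 and Igkv9-120 each led 1 TAS-Seq cell and 4 BD WTA cells (1.16%, 0.0294 to 6.31%, against 6.25%, 1.73 to 15.2%), while Igkv13-84 led 3 and 1. Igkv14-126, Igkv15-103 and Igkv17-127 led 4 cells in all, as many as Igkv13-84 and Igkv14-111. Pseudogenes led 1 cell in each library, Igkv2-107 in TAS-Seq and Igkv3-11 in BD WTA.

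**Figure D3:**
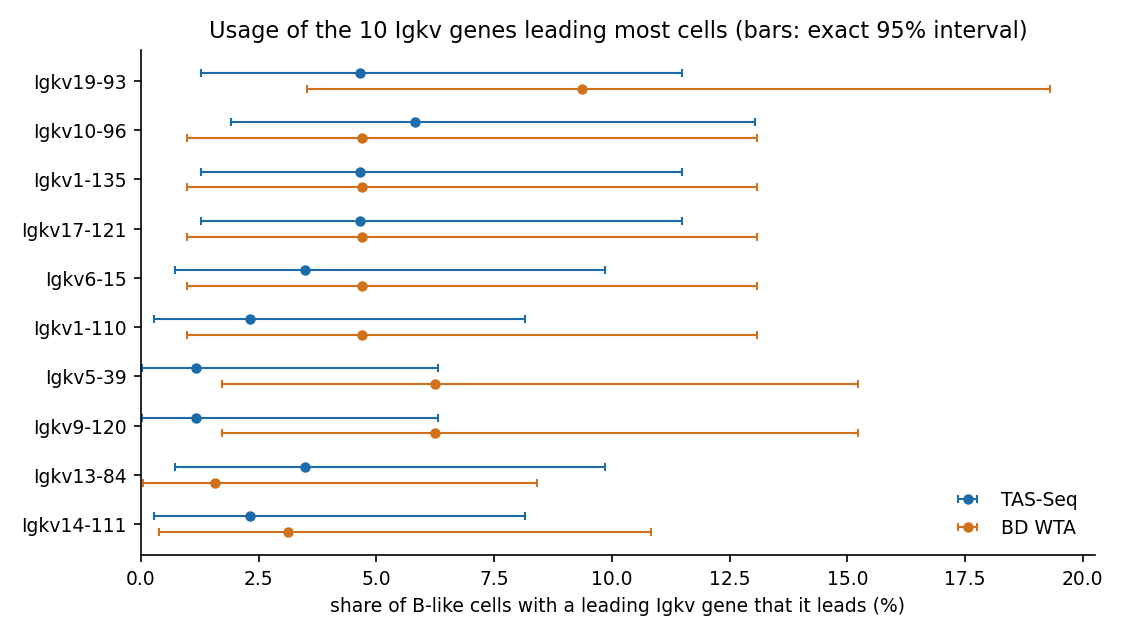
Share of B-like cells with a leading Igkv gene that is led by each of the 10 most used members (horizontal axis, %), of 86 TAS-Seq and 64 BD WTA cells, with exact 95% intervals. The intervals of the libraries overlap for each of the 10 genes, and the highest value is 9.38% for Igkv19-93 in BD WTA.

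By family, the leading genes covered most of the locus. Family 4, the largest with 26 of the 100 annotated V genes, led 12 TAS-Seq cells (14%, 7.42 to 23.1%) and 7 BD WTA cells (10.9%, 4.51 to 21.2%), both below its share of genes. Family 6, with 9 V genes, led 14 (16.3%, 9.20 to 25.8%) and 4 (6.25%, 1.73 to 15.2%), and family 1, with 10 V genes, led 8 (9.30%) and 11 (17.2%, 8.90 to 28.7%). Family 19, which has 1 V gene, led 4 and 6 cells. The intervals of the libraries overlapped for each of these families.

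Position along the locus was compared because Igkv genes lie at increasing distance from the joining segments and in either orientation. Members within 1000 kb of Igkj1 led 34 TAS-Seq cells (39.5%, 29.2 to 50.7%) and 14 BD WTA cells (21.9%, 12.5 to 34.0%), against 40.0% of annotated V genes in that stretch. Those from 2000 to 4000 kb led 33 (38.4%, 28.1 to 49.5%) and 34 (53.1%, 40.2 to 65.7%), against 29.0% of V genes. The BD WTA cells thus leaned to distant members, but the intervals of the libraries overlapped in both stretches. Plus-strand members, which lie in the orientation of the joining segments, led 44.2% (33.5 to 55.3%) and 53.1% (40.2 to 65.7%) of cells, against 38.0% of V genes.

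**Figure D4:**
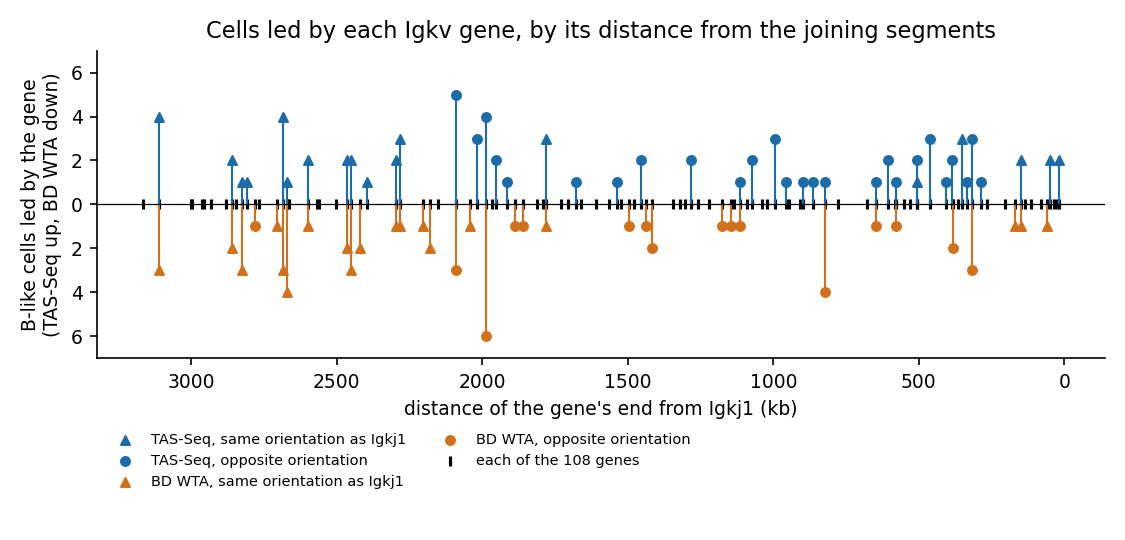
B-like cells led by each member (vertical axis, TAS-Seq upward and BD WTA downward) against the distance of the gene from Igkj1 in kb, with triangles for genes in the orientation of Igkj1, circles for the opposite orientation and black ticks for all 108 members. Both libraries have led cells along the whole locus, with 34 of 86 TAS-Seq and 14 of 64 BD WTA cells within 1000 kb.

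A handful of cells dominated the Igkv reads. In TAS-Seq 1 cell and in BD WTA 4 cells had over 500 Igkv reads, and the next highest cells had 88 and 83. The same 5 cells were the only ones with at least 1000 Jchain reads, the next highest Jchain counts being 18 and 266. They held 17.9% and 64.2% of all Igkv reads and 29.2% and 66.8% of all Igkc reads. All clustered with the B-like cells. Other transcripts of antibody secretion were present unevenly, with 79 reads of Sdc1, which encodes the plasma cell surface protein syndecan-1, in the TAS-Seq cell and 0 to 16 in the BD WTA cells. Xbp1, a factor that expands the secretory machinery, had from 193 to 521 reads in the 5 cells. The remaining plasma cell markers were low or uneven. Prdm1 had 1 read in the TAS-Seq cell and 0 to 2 in the BD WTA cells, and Irf4 had 13 and 0 to 68. Tnfrsf17 had 76 reads in 1 BD WTA cell and 0 in the rest of the 5.

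The TAS-Seq cell had 794 Igkv reads, 469 of Igkv1-117 (59.1%), 161 of Igkv8-16 (20.3%) and 133 of Igkv1-110, among 12 members seen. It also divided its joining reads, with 236 of 405 on Igkj1 and 167 on Igkj5, and its leading heavy chain gene was Ighv1-80 with 72 of 91 Ighv reads. Igkv1-117 and Igkv1-110 were 97.5% identical, whereas Igkv8-16 was unlike both in family, and the pair Igkv1-117 and Igkv8-16 is shown above. No other high cell had reads on more than 1 Igkj segment.

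The 4 BD WTA cells each had 1 joining segment. The highest had 1688 Igkv reads, 1225 of Igkv1-122 (72.6%), 196 of Igkv1-110 and 193 of Igkv1-117, with all 730 Igkj reads on Igkj5. The next had 1507, of which Igkv14-126 took 1464 (97.1%), with 47 reads on Igkj2. Another had 869, with 809 of Igkv14-126 (93.1%) and 60 of Igkv14-111, and 73 reads on Igkj4. In the last of them, 613 of 814 reads were of Igkv1-135 (75.3%), 127 of Igkv1-133 and 68 of Igkv1-131, with 98 reads on Igkj1. In each of the 4 the second gene was 91.6 to 96.5% identical to the first, as the sequences above show.

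**Figure D5:**
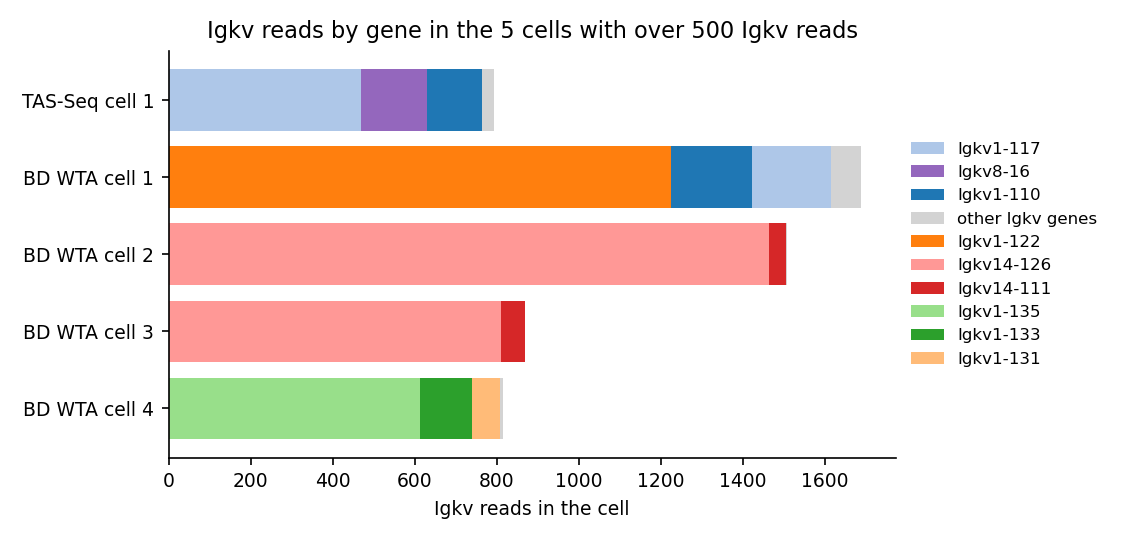
Igkv reads by gene (horizontal axis, reads) in the 5 cells with over 500 Igkv reads, 1 of TAS-Seq and 4 of BD WTA, with colours for genes and grey for other members. The TAS-Seq cell divides 794 reads among Igkv1-117, Igkv8-16 and Igkv1-110, and 2 BD WTA cells are nearly all Igkv14-126.

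The 2 Igkv14-126 cells also shared a heavy chain gene. Ighv11-2 held 172 of 189 Ighv reads in one and 144 of 149 in the other. The pairing of Ighv11-2 with Igkv14-126 is known from B-1 cells, whose antibodies of this type bind phosphatidylcholine. It was the only pair of a leading Igkv and a leading Ighv gene seen in more than 1 cell, among the 13 BD WTA and 23 TAS-Seq cells of the B-like and unnamed clusters that had a leading Igkv gene and at least 10 Ighv reads. Their joining segments differed (Igkj2 and Igkj4). In TAS-Seq, Igkv14-126 led 1 B-like cell, with 25 of 27 Igkv reads and Ighv1-62-2 as leading heavy gene at 4 of 6 reads. It also led 1 cell of the unnamed cluster, with 17 of 18 Igkv reads and Ighv11-1 as leading heavy gene at 1 of 2 reads. Another BD WTA B-like cell had 35 of 54 reads on Igkv14-126 and no Ighv read. The libraries hold different cells of the pool. Neither TAS-Seq cell led by Igkv14-126 had at least 10 Ighv reads, so the 23 TAS-Seq cells could not have shown the pair.

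Outside the 5 cells the summed Igkv level was nearly equal in the libraries. B-like cells had 222.5 CPM of all members together in TAS-Seq and 511.3 in BD WTA, and 177.0 and 176.0 CPM once the 5 cells were left out. On a log2 scale the ratio of TAS-Seq to BD WTA moved from −1.20 to 0.01. The ratio of Igkv to Igkc reads in B-like cells was 1.69% and 1.44%, and 1.97% and 1.56% without those cells.

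Gene by gene, few members could be compared. A gene needed 10 CPM and 10 B-like cells with a read in 1 of the libraries to be compared, which 5 members and 9632 genes of all kinds met. Of those genes 21.8% differed at least 2-fold, 14.5% higher in TAS-Seq and 7.26% higher in BD WTA, around a median log2 ratio of 0.16. Igkv8-16 was at least 5.81 higher in TAS-Seq on the log2 scale (11.9 CPM against 0 reads, taken as 3 reads), Igkv19-93 lay at −1.31 (6.09 and 15.1 CPM), and Igkv1-110, Igkv10-96 and Igkv1-117 lay at −0.49, −0.37 and 0.84. Igkv8-16 and Igkv19-93 met the filter only through the library where they were higher, so these ratios are given as a description. Without the 5 high cells only Igkv19-93 (−1.38) and Igkv10-96 (−0.43) met the filter, Igkv19-93 again only through BD WTA. Of all 9665 genes then compared, 7.58% were at least 2-fold higher in BD WTA, 13.7% in TAS-Seq and 21.3% in either.

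Among the 20 members with reads in at least 10 B-like cells of a library and at least 3 reads in each, the ends of the range were set by few cells. The lowest log2 ratios were those of Igkv1-122 (−6.05, 1.34 against 89.1 CPM, with 97.4% of its BD WTA reads in 1 cell), Igkv1-135 (−3.28, with 92.9% in 1 cell) and Igkv3-5 (−2.67, with 59.1% in 1 cell). The highest were Igkv10-94 (4.29, 4.14 against 0.212 CPM), Igkv6-17 (4.2) and Igkv12-46 (2.52). For these the BD WTA level rested on 3, 3 and 6 reads, whereas the TAS-Seq reads came from 13, 13 and 15 cells.

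Genes of light chain assembly and antibody secretion were taken from a list of 27, of which 20 passed the same filter. In BD WTA 7 were at least 2-fold higher and in TAS-Seq 0, against 7.26% and 14.5% of all genes. The median log2 ratio was −0.44 beside 0.16 over all genes. The 7 were Igkc (−1.43), Igkj5 (−1.31), the lambda variable genes Iglv1 (−1.51) and Iglv2 (−1.36), Jchain (−4.06), Xbp1 (−1.47) and Rag2 (−1.06), a subunit of the recombinase. Without the 5 high cells, Igkc lay at −0.33, Igkj5 at 1.55, Iglv1 at 0.98, Iglv2 at −0.71, Xbp1 at −0.81, Jchain at −3.18 and Rag2 at −1.19. Of the 7, only Jchain and Rag2 then stayed at least 2-fold higher in BD WTA, and Igkj5 was at least 2-fold higher in TAS-Seq. Jchain then lay at 3.16 CPM in TAS-Seq and 28.5 CPM in BD WTA. Outside the 5 cells, the highest Jchain count of any cell was 18 in TAS-Seq and 266 in BD WTA. The part of single cells in the remaining Jchain gap was not tested. Of the genes used in earlier B cell stages, Vpreb3 had 3411 and 2653 reads in B-like cells (208 and 188 CPM) and Rag2 had 250 and 448 reads, in 27.5% and 4.52% of the cells. Rag1, the other recombinase subunit, was listed in neither table, Dntt, the terminal transferase of B cell precursors, was listed at 0 in both, and Igll1, a surrogate light chain gene, had 1 read in TAS-Seq.

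Joining segments were counted in the B-like cells with a leading Igkv gene, a choice that allows no comparison with how often V genes were seen. Cells with at least 5 Igkj reads numbered 32 among the TAS-Seq and 10 among the BD WTA B-like cells with a leading Igkv gene. Igkj1 led 12 of the 32 (37.5%, 21.1 to 56.3%) and 2 of the 10 (20%, 2.52 to 55.6%), Igkj4 led 10 and 3, Igkj5 led 6 and 1, and Igkj2 led 3 and 4. Igkj3, whose splice site is defective in the mouse, led 1 TAS-Seq cell and was not listed in BD WTA.

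Igkv reads were scarce in cells dominated by the lambda chain. In 39 TAS-Seq and 27 BD WTA B-like cells the lambda constant genes (Iglc) had more reads than Igkc. An Igkv read was seen in 17 of these 39 (43.6%, 27.8 to 60.4%), close in value to the 41.0% of TAS-Seq T-like cells, and in 1 of the 27 (3.7%, 0.0937 to 19.0%). In cells with Igkc at or above Iglc the shares were 90.7% (87.0 to 93.7%) and 58.0% (52.3 to 63.6%), so the intervals of the groups lay apart in each library. The groups were set by Igkc reads, with medians of 8 and 2 in the lambda cells against 389 and 459. Igkv and Igkc lie on the same spliced transcript, so this choice also favours few Igkv reads in the lambda cells. A leading Igkv gene was held by 1 lambda cell in each library. It was Igkv4-91 with 8 of 10 Igkv reads in TAS-Seq and Igkv5-39 with all 44 in BD WTA. Conversely, at least 10 Iglc reads were counted in 85 of the 86 TAS-Seq cells (98.8%) and 55 of the 64 BD WTA cells (85.9%) with a leading Igkv gene, and the same held for 94.6% and 84.7% of the other B-like cells. The B-like median was 102 Iglc reads per cell in TAS-Seq and 61 in BD WTA, beside 1 and 0 in T-like cells. Lambda constant reads were therefore common in kappa cells too, and their origin was not tested.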

How the data were processed

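Polyadenylated RNA of single spleen cells was measured in 1 TAS-Seq and 1 BD WTA library, grouped by sample title. The deposited files give raw counts of reads for each gene and barcode, made by the authors without molecular identifiers. Per the study's methods, reads were mapped with bowtie2 to Ensembl transcripts of GRCm38 on the forward strand, and barcodes above the inflection point were kept. The submitters' processing notes name Bowtie2 2.4.2, cutadapt 2.10 and R 3.6.3. The methods also describe a correction that sets background reads of highly counted genes to 0 in TAS-Seq matrices, and whether the tables used here went through it is not stated. Mapping to transcripts can divide reads among near-identical V genes.

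Members and gene lists were chosen with earlier results of these data known. Barcodes with under 500 genes or a mitochondrial share over 0.25 were removed (4 and 8). Libraries were clustered in Seurat 5.3.0 (R 4.3.3, 20 principal components, resolution 1) without immunoglobulin genes, and clusters were named from at least 3 raised markers. A name also needed at least 1 marker of the type among the 10 genes most raised in the cluster, and more of them than of any other type. In Python 3.11.15 (pandas 2.3.3, scipy 1.17.1), a cell with at least 10 Igkv reads was given its most counted Igkv gene as leading gene, dominant at a share of 0.9. Identity came from global alignment (Biopython 1.88) of GENCODE M21 transcripts over aligned bases. In pooled CPM ratios, 0 reads were set to 3. Intervals are exact binomial (Clopper-Pearson) or Poisson, and for medians from order statistics over cells. The code was tested on simulated data.

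Genes named were the 10 members leading most B-like cells, the 3 highest and 3 lowest pooled ratios, the leading genes of the 3 cells with most Igkv reads in each library and 27 genes of light chain assembly and secretion. Other members named were chosen after their values were seen. Alternatives were other minimums, thinning, cells chosen one by one from markers, Scrublet (scanpy 1.11.5), other usage measures, TMM factors (edgeR 4.0.16) and other level filters.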

Additional observations from a re-analysis of the deposited data

How the results depend on the processing

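No paired analysis was possible because neither TAS-Seq nor BD WTA had a replicate, and no library could be left out. Of 74 alternatives over 15 values, 54 stayed within the counting error of the main value or within 1.5 times a count, and the sign of the difference turned in 7, all given here. Differences are TAS-Seq minus BD WTA in percentage points. The share of B-like cells with a leading gene differed by 4.41, by 14.2 at a minimum of 5 reads, −1.16 at 20 reads, −4.32 at 50 reads and −2.03 after thinning to 20000 reads. The share with a dominant gene differed by −28.7, by −5.56 at a minimum of 50 reads and −2.25 at a dominant share of 0.5. With reads of genes at least 90% identical added to the leading gene, which was chosen after seeing the data, the median leading share differed by −6.35 in place of −21.7. The intervals of that median then lay apart, unlike those of the main value. At a minimum of 50 reads, 4 TAS-Seq and 12 BD WTA members led a cell, the share of cells led from within 1000 kb of Igkj1 differed by −33.3 in place of 17.7, and that of family 1 by 8.33 in place of −7.89, over 4 and 18 cells. The share of reads beside the leading gene on genes at least 90% identical to it differed by −28, and by 4.37 without the 5 cells of at least 1000 Jchain reads, chosen after seeing the data. T-like cells with Igkv reads differed by 40.3 at 1 read, 17.4 after thinning, and 0 at both 5 and 10 reads. B-like cells with an Igkv read differed by 32.1, by 24.2 after thinning and by 22.3 at 3 reads, both chosen after seeing the data. The log2 ratio of summed Igkv CPM was −1.20, −0.62 with equal weight per cell, −1.32 with TMM factors and 0.0080 without the 5 cells of at least 1000 Jchain reads, which was chosen after seeing the data and turned its direction. BD WTA had 52 members with at least 10 reads in place of 82 with any. The cause of these changes was not tested. At 50 CPM no member passed, so no member ratio could be given there. Without a level filter 62 members with at least 3 reads in each library could be compared, 19 higher by 2-fold in each library, among 17166 genes of which 17.9% were higher in TAS-Seq and 15.9% in BD WTA. Scrublet removed 1 TAS-Seq B-like cell with a leading gene, and the values barely moved. With 86 and 64 cells given a leading gene, usage intervals were several points wide.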
